A study of Oryctolagus cuniculus with 20 samples.

Results

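Ribosomal protein genes encode the protein components of the large and the small subunit of the cytosolic ribosome. The genes described here are 45 of the 23669 genes counted in rabbit tricuspid valves, 27 of the large and 18 of the small subunit. They were chosen by their differences between treated and non-treated valves, since they were taken by symbol and gene id from the study's own list of differentially expressed genes (DEGs). The values behind that listing were not used. Comparisons of each treatment with the non-treated valves are therefore descriptions of genes already chosen for such differences, and nothing is tested with them. The list held 58 distinct symbols of this kind. Of these, 7 were left out by name, and 6 had only ids too shortened to be matched to the counts (RPL19, RPL27, RPL36AI, RPL36AL, RPS1 and RPS12). Genes of the family that the list did not hold are not described, so the 45 genes are not a full set of ribosomal proteins.

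RNA was sequenced from the tricuspid valves of 20 female New Zealand white rabbits, aged 8 weeks at the start, with 5 rabbits per group. Non-treated rabbits received water, and the daily doses of the other groups, taken in water for 16 weeks, were 80 mg/kg of serotonin, 0.5 mg/kg of pergolide or 20 mg/kg of dexfenfluramine. Pergolide is an ergot derivative and dexfenfluramine an appetite suppressant, and the study asked how valves change under these drugs and under a high dose of serotonin. The dexfenfluramine dose is that of the sample labels and the study's methods, and its results text gives another, so that this dose is uncertain. Each library comes from the valve of a separate rabbit.

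Ribosomal proteins are made in matched amounts with ribosomal RNA, and proteins in excess of assembled subunits are degraded. Their messenger RNAs are among the most abundant of most cells and usually begin with a terminal oligopyrimidine (TOP) motif, through which mTOR signalling and the RNA-binding protein LARP1 control their translation. In heart valves, protein synthesis by interstitial cells sustains the turnover of the collagen-rich matrix.

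The total count of a valve ran from 3247091 to 5921025. The 45 genes took from 0.330% of the reads of a valve (non-treated valve 4) to 1.21% (dexfenfluramine valve 3). A gene without a symbol, ENSOCUG00000029084, took between 20.3% and 48.1% of the reads of a valve, so levels are given as CPM after TMM scaling, which sets each library against the bulk of the genes. The scaling factors ran from 0.584 (non-treated valve 4) to 1.72 (dexfenfluramine valve 3). A pair of libraries stood apart. Non-treated valve 3 had a scaling factor of 1.25, against 0.584 to 0.823 in the other non-treated valves, and 28.5% of its reads lay on the leading gene, against 40.4% to 48.1%. Dexfenfluramine valve 3 had the lowest total of the 20 libraries and the lowest share of the leading gene. For the 45 genes as a whole, counts of calls against non-treated valves are given with and without this pair.

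The tissue label was set beside marker genes. Symbols come from the study's list of DEGs, so markers outside that list were not examined. Of 9 markers of valvular interstitial cells, the fibroblast-like cells of the leaflet, 7 had a symbol. None of these was at 0 in all valves, but genes called in these valves must have reads, so this does not check the label. The 7 markers summed to 6205 ± 992 CPM (SD, n = 5) in non-treated valves, with the intermediate filament gene VIM as the most read. Of 11 cardiomyocyte markers, 7 had a symbol, and their summed level in non-treated valves was far higher, 106100 ± 39350 CPM (SD, n = 5), with the giant sarcomere gene TTN as the most read. The valves sampled thus held interstitial cell RNA together with RNA of heart muscle genes. Summed cardiomyocyte markers were 73760 ± 22640 CPM after serotonin, 71470 ± 20920 after pergolide and 52040 ± 23510 after dexfenfluramine (SD, n = 5 each), with 12200 CPM in dexfenfluramine valve 3. Non-treated valve 3 had 48130 CPM, where the other non-treated valves had 94320 to 147100. These are whole pieces of tissue, in which fewer cells of a type and less RNA per cell cannot be told apart. The part of tissue make-up in the differences between groups was not tested.

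Read levels spanned a wide range. Averaged over the 20 valves, the 45 genes ran from 1.60 CPM (RPL23) to 1019 CPM (RPL4). CPM is not divided by transcript length, and no lengths were used, so these levels describe where the reads lie and do not rank the transcripts. The 5 genes with most reads took 43.2% of the reads of the family, and the 10 with most reads took 64.4%. All 45 passed the filter on low counts that left 8683 genes for testing, although RPL23 had a count of 0 in 1 valve and RPL13A counts of 3 in 2 valves.

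**Figure D1:**
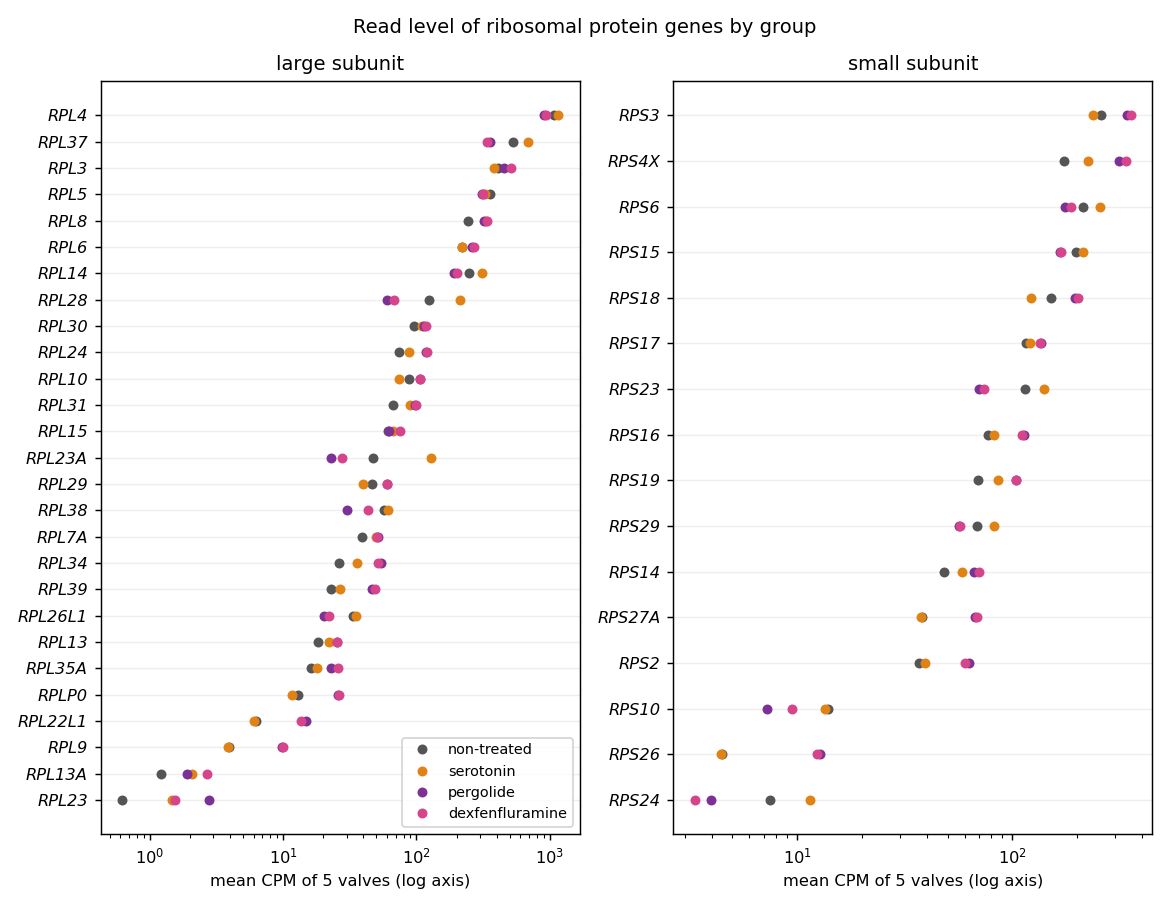
Mean CPM of 5 valves for each gene shown (log axis), with the large subunit on the left and the small subunit on the right, ordered by the mean over all valves; colours mark the 4 groups. The groups of most genes lie close together on this axis, between 1.60 CPM for RPL23 and 1019 CPM for RPL4 over all valves, while RPL28 and RPL23A spread the most among the better-read genes.

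RPL4 (ENSOCUG00000008794) measured 1281, 1097, 1058, 1008 and 929 CPM in non-treated valves 1 to 5, 1115, 966, 1226, 1208 and 1248 after serotonin, 999, 931, 901, 843 and 878 after pergolide and 815, 915, 1052, 968 and 935 after dexfenfluramine. RPL4 reaches into the tunnel through which new protein leaves the ribosome. RPL5 (ENSOCUG00000010089) measured 343, 386, 365, 359 and 312 CPM in non-treated valves 1 to 5, 320.3, 310.2, 315, 353 and 321 after serotonin, 329, 291, 328, 304 and 291 after pergolide and 293, 315, 314, 348 and 314 after dexfenfluramine. RPL5 is bound to 5S ribosomal RNA before it joins the large subunit, and with RPL6 it had the smallest spread between valves of a group, with a within-group SD of 0.09 on the log2 scale for each. Groups of RPL4 and RPL5 overlapped, and neither gene was called for any treatment. For RPL4 the log2 fold change was -0.24 ± 0.10 for pergolide and -0.20 ± 0.10 for dexfenfluramine, and for RPL5 -0.19 ± 0.07 and -0.16 ± 0.07; all 4 were above 0 with total counts in place of TMM, and that of RPL5 for dexfenfluramine was then called. RPL6 (ENSOCUG00000003802) measured 229, 243, 219, 204 and 209.6 CPM in non-treated valves 1 to 5, 215, 189, 226, 229.8 and 229 after serotonin, 269, 269.9, 243, 268 and 250.1 after pergolide and 275, 254, 274, 279 and 257 after dexfenfluramine. RPL6, a protein of the large subunit, was higher in every valve of both drug groups than in any non-treated valve, by 0.24 ± 0.07 (log2, ± SE) for pergolide and 0.28 ± 0.07 for dexfenfluramine. The call of RPL6 for pergolide was lost when non-treated valve 4 or 5 or pergolide valve 2 was left out, with log2 fold changes of 0.20, 0.20 and 0.21. RPL3 (ENSOCUG00000027712) measured 403, 411, 452, 377 and 417 CPM in non-treated valves 1 to 5, 371, 318, 404, 355 and 458 after serotonin, 381, 448, 446, 490.2 and 513 after pergolide and 465, 481, 571, 542 and 479 after dexfenfluramine. RPL3 lies next to the peptidyl transferase centre, where peptide bonds form. Its log2 fold change was 0.30 ± 0.10 for dexfenfluramine, without overlap with non-treated valves, and 0.15 ± 0.10 for pergolide. That call for dexfenfluramine was lost without non-treated valve 1 (0.29), 2 (0.29), 4 (0.26) or 5 (0.30), without dexfenfluramine valve 3 (0.26) or 4 (0.28), and without both libraries that stood apart.

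A gene was called when its p-value from edgeR's quasi-likelihood test, adjusted by the Benjamini-Hochberg method over the 8683 tested genes, was under 0.05. For pergolide against non-treated valves, 36 of the 45 genes were called, 25 higher and 11 lower (28 higher and 0 lower with total counts in place of TMM), where 24.8% of all tested genes were called, 12.1% higher and 12.7% lower (27.4% with total counts, 26.4% higher and 1% lower). For dexfenfluramine, 33 were called, 25 higher and 8 lower (32 higher and 0 lower with total counts), where 28.9% of all genes were called, 13.5% higher and 15.4% lower (58.7% with total counts, 57.4% higher and 1.36% lower). For serotonin, 3 were called, each higher, where 1.19% of all genes were called, 1.04% higher and 0.15% lower. At an unadjusted p under 0.05 stood 41 genes for pergolide (37.1% of all genes), 42 for dexfenfluramine (40.7%) and 18 for serotonin (15.8%). The p-values set each difference between groups against the spread between rabbits within groups, estimated in a single fit of the 4 groups. Because these comparisons chose the genes, the counts are read no further. Both drugs are compared with the same 5 non-treated valves. Without both libraries that stood apart, 32 genes were called for pergolide, all of them among the 36, where 28.4% of all genes were called. For dexfenfluramine 29 were then called, of which 26 were among the 33, where 28.3% of all genes were. For serotonin, 5 were then called, which included the 3, where 5.53% of all genes were.

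Called in the same direction for pergolide and for dexfenfluramine were 23 genes that were higher, 14 of the large and 9 of the small subunit, and 8 that were lower, 4 of each subunit, of which 5 turned to higher values for dexfenfluramine with total counts in place of TMM. Over all tested genes, 8.99% were called higher for both drugs and 10.6% lower. Without both libraries that stood apart, 20 of the 23 and 6 of the 8 were called the same way, and RPL13, RPL7A and RPS14, and RPL26L1 and RPS10, were not. Genes of both subunits were found on both sides after TMM scaling. These directions are relative to the bulk of the genes. With total counts in place of TMM, the median of all tested genes moved from 0.02 to 0.46 on the log2 scale for pergolide and from 0.03 to 0.70 for dexfenfluramine. Of the called genes, RPL14 and RPS6 then turned to higher values for pergolide, as did RPL14, RPL26L1, RPL37, RPS10 and RPS23 for dexfenfluramine.

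**Figure D2:**
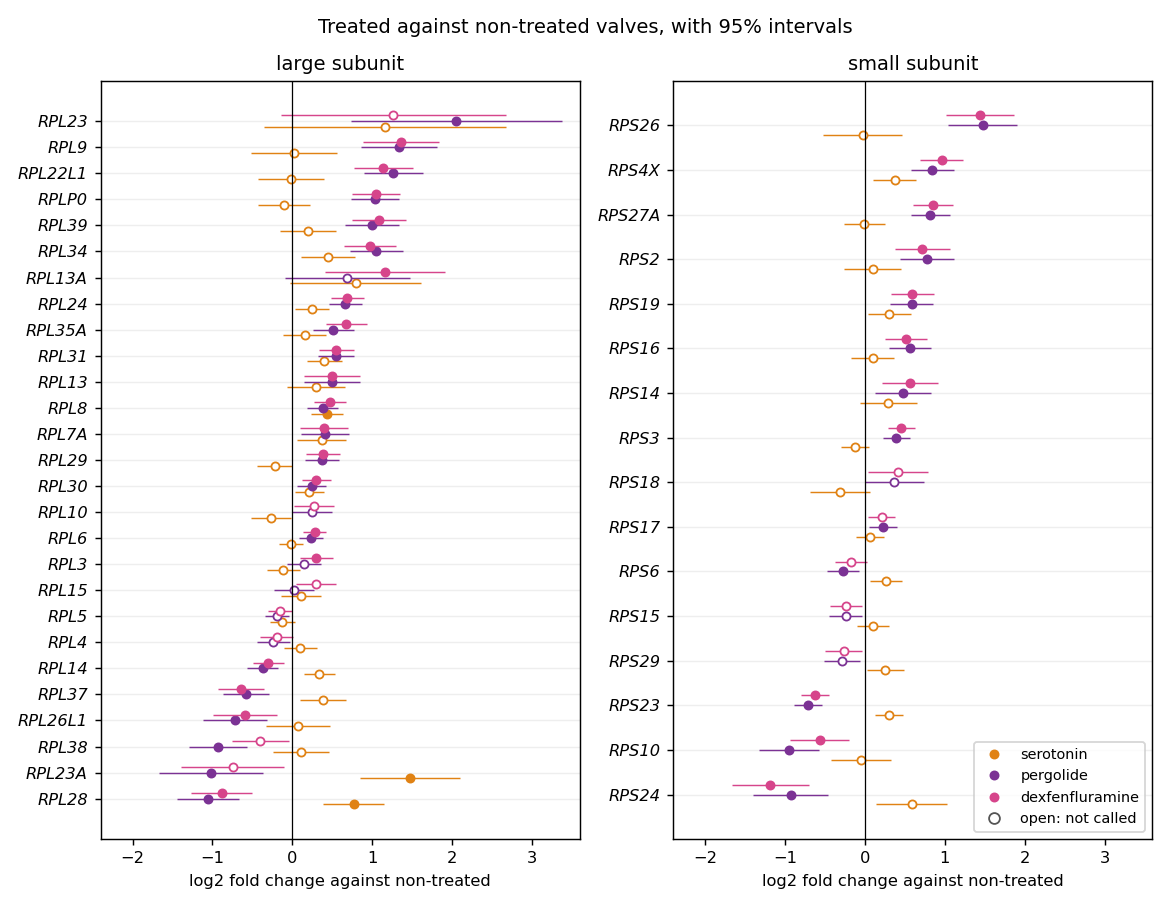
Log2 fold change of each gene shown against non-treated valves, by subunit, for the 3 treatments (points, with 95% intervals as lines); filled points were called and open points were not. Points of the drugs lie close to each other, with RPL28 and RPL23A lower for the drugs and higher for serotonin; values are relative to TMM scaling, and with total counts, of the called genes, RPL14, RPL26L1, RPL37, RPS10 and RPS23 turned to higher values for dexfenfluramine, and RPL14 and RPS6 for pergolide, as did uncalled genes such as RPL4 and RPL5 for both drugs.

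The groups did not overlap for 30 of the 45 genes with pergolide (20 higher and 10 lower, where 16.3% of all genes did not overlap, 7.95% higher and 8.34% lower) and for 21 with dexfenfluramine (17 higher and 4 lower, where 17% did not, 8.26% higher and 8.71% lower). With serotonin they did not overlap for RPL8, RPL24 and RPL28, all higher, where 2.66% of all genes did not, 2.05% higher and 0.61% lower. The median log2 fold change of the 45 genes was 0.38 for pergolide, 0.40 for dexfenfluramine and 0.15 for serotonin, beside 0.02, 0.03 and 0.01 over all tested genes. By subunit, the medians were 0.38 for large and 0.38 for small subunit genes with pergolide, and 0.39 and 0.44 with dexfenfluramine. The subunits thus had nearly the same median with either drug.

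Among genes with higher values under the drugs, RPS26 had the largest log2 fold change for dexfenfluramine and the largest after RPL23 for pergolide. RPS26 (ENSOCUG00000027459) measured 2.52, 5.96, 4.74, 4.12 and 5.06 CPM in non-treated valves 1 to 5, 4.89, 3.17, 2.92, 6.97 and 4.21 after serotonin, 11.5, 12.5, 12.2, 13.7 and 13.7 after pergolide and 9.25, 15.0, 14.2, 11.6 and 12.02 after dexfenfluramine. RPS26 lines the channel through which messenger RNA leaves the small subunit. Every drug-treated valve was above every non-treated and serotonin valve. For RPS26, the log2 fold change was 1.47 ± 0.21 for pergolide and 1.44 ± 0.21 for dexfenfluramine, and -0.03 ± 0.24 for serotonin. RPL9 (ENSOCUG00000025006) measured 5.05, 6.23, 3.34, 3.53 and 1.61 CPM in non-treated valves 1 to 5, 4.43, 2.85, 4.09, 4.02 and 3.93 after serotonin, 8.81, 10.9, 8.85, 8.09 and 12.1 after pergolide and 8.82, 9.65, 9.36, 11.7 and 10.1 after dexfenfluramine. RPL9 sits near the base of the stalk of the large subunit, and its drug-treated valves were likewise all above the others. For RPL9, the log2 fold change was 1.34 ± 0.23 for pergolide and 1.36 ± 0.23 for dexfenfluramine, and 0.02 ± 0.26 for serotonin. Both genes had few reads, with counts of 7 or more in each valve.

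RPLP0 (ENSOCUG00000025474) measured 17.7, 13.5, 9.83, 11.2 and 11.96 CPM in non-treated valves 1 to 5, 10.2, 11.4, 9.94, 14.5 and 12.6 after serotonin, 29.3, 26.3, 20.4, 28.8 and 24.9 after pergolide and 25.6, 27.6, 23.9, 24.2 and 29.8 after dexfenfluramine. RPLP0 is the base of the stalk that recruits elongation factors to the large subunit. Its drug-treated valves started at 20.4 CPM and its other valves ended at 17.7 CPM. For RPLP0, the log2 fold change was 1.04 ± 0.14 for pergolide and 1.05 ± 0.14 for dexfenfluramine. RPL22L1 (ENSOCUG00000014962) measured 8.66, 4.88, 7.20, 6.77 and 3.68 CPM in non-treated valves 1 to 5, 6.76, 4.75, 7.01, 5.90 and 5.90 after serotonin, 15.1, 11.4, 15.0, 16.5 and 16.0 after pergolide and 14.4, 12.9, 14.9, 11.7 and 14.1 after dexfenfluramine. RPL22L1 is a paralogue of RPL22, encoded by a separate gene, and its groups divided in the same way. For RPL22L1, the log2 fold change was 1.26 ± 0.18 for pergolide and 1.14 ± 0.18 for dexfenfluramine, while the value was -0.02 ± 0.20 for serotonin. The other paralogue, RPL26L1, was lower under the drugs. RPL26L1 (ENSOCUG00000006172) measured 33.2, 45.5, 30.5, 35.6 and 22.3 CPM in non-treated valves 1 to 5, 36.1, 30.7, 33.6, 34.3 and 40.2 after serotonin, 21.8, 26.3, 12.4, 21.8 and 18.5 after pergolide and 22.2, 28.8, 14.6, 20.1 and 24.4 after dexfenfluramine. For RPL26L1, the log2 fold change was -0.72 ± 0.19 for pergolide and -0.60 ± 0.19 for dexfenfluramine, with overlap of the groups in both cases. The call of RPL26L1 for dexfenfluramine was lost without non-treated valve 2 (-0.47), dexfenfluramine valve 3 (-0.48) or dexfenfluramine valve 4 (-0.57), and its value with total counts was 0.06.

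RPS27A (ENSOCUG00000015239) measured 32.5, 43.6, 35.1, 32.4 and 46.2 CPM in non-treated valves 1 to 5, 38.2, 32.6, 38.6, 33.8 and 46.1 after serotonin, 77.6, 59.3, 56.3, 70.0 and 72.8 after pergolide and 65.2, 69.3, 74.9, 63.0 and 71.5 after dexfenfluramine. RPS27A is made as a fusion of ubiquitin with a ribosomal protein, and serotonin valves lay within 32.6 to 46.1 CPM, beside 32.4 to 46.2 CPM without treatment. For RPS27A, the log2 fold change was 0.82 ± 0.12 for pergolide and 0.85 ± 0.12 for dexfenfluramine. RPS4X (ENSOCUG00000015749) measured 265, 159, 159, 134 and 153 CPM in non-treated valves 1 to 5, 237, 232, 237, 198 and 222 after serotonin, 289, 301, 290.2, 341 and 339 after pergolide and 347, 347, 338, 339 and 321 after dexfenfluramine. RPS4X belongs to the body of the small subunit and was among its 3 genes with most reads. Non-treated valve 1 was well above the other valves of its group, and still below every drug-treated valve. For RPS4X, the log2 fold change was 0.85 ± 0.13 for pergolide and 0.96 ± 0.13 for dexfenfluramine, with 0.37 ± 0.13 for serotonin. RPS3 (ENSOCUG00000022412) measured 224, 277, 270.4, 258 and 263 CPM in non-treated valves 1 to 5, 225, 209.5, 272, 241 and 239.6 after serotonin, 348, 359.6, 318, 346 and 328 after pergolide and 332, 368, 399, 357 and 319.9 after dexfenfluramine. RPS3 sits at the entry of messenger RNA into the small subunit. For RPS3, the log2 fold change was 0.40 ± 0.08 for pergolide and 0.46 ± 0.08 for dexfenfluramine, again without overlap with non-treated valves.

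RPL23 (ENSOCUG00000021038) measured 0.721, 0, 1.05, 0.882 and 0.460 CPM in non-treated valves 1 to 5, 1.63, 1.27, 0.292, 1.88 and 2.25 after serotonin, 3.26, 3.59, 2.74, 1.41 and 2.85 after pergolide and 0.215, 3.27, 0.180, 1.12 and 2.89 after dexfenfluramine. RPL23 lies at the interface of the subunits and had the fewest reads of the family and the largest spread within groups, 0.84 (SD, log2). Its counts were 0 to 6 reads in non-treated valves and 8 to 21 after pergolide, and 1 read in each of dexfenfluramine valves 1 and 3, so its log2 fold changes of 2.05 ± 0.64 for pergolide and 1.27 ± 0.68 for dexfenfluramine are imprecise. The call for pergolide was lost without non-treated valve 2 (1.75) or 5 (1.94). RPL13A (ENSOCUG00000026592) measured 2.16, 0.813, 1.05, 1.18 and 0.920 CPM in non-treated valves 1 to 5, 1.86, 3.17, 0.877, 1.61 and 2.81 after serotonin, 1.92, 2.22, 1.05, 1.41 and 2.85 after pergolide and 3.66, 2.24, 3.06, 1.49 and 2.89 after dexfenfluramine. RPL13A is next to last in reads, with counts of 3 to 18 per valve. It was called for dexfenfluramine, at 1.16 ± 0.36, with overlapping groups. That call was lost without non-treated valve 2 (1.05) or 5 (1.07) or dexfenfluramine valve 1 (1.03), and without both libraries that stood apart.

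**Figure D3:**
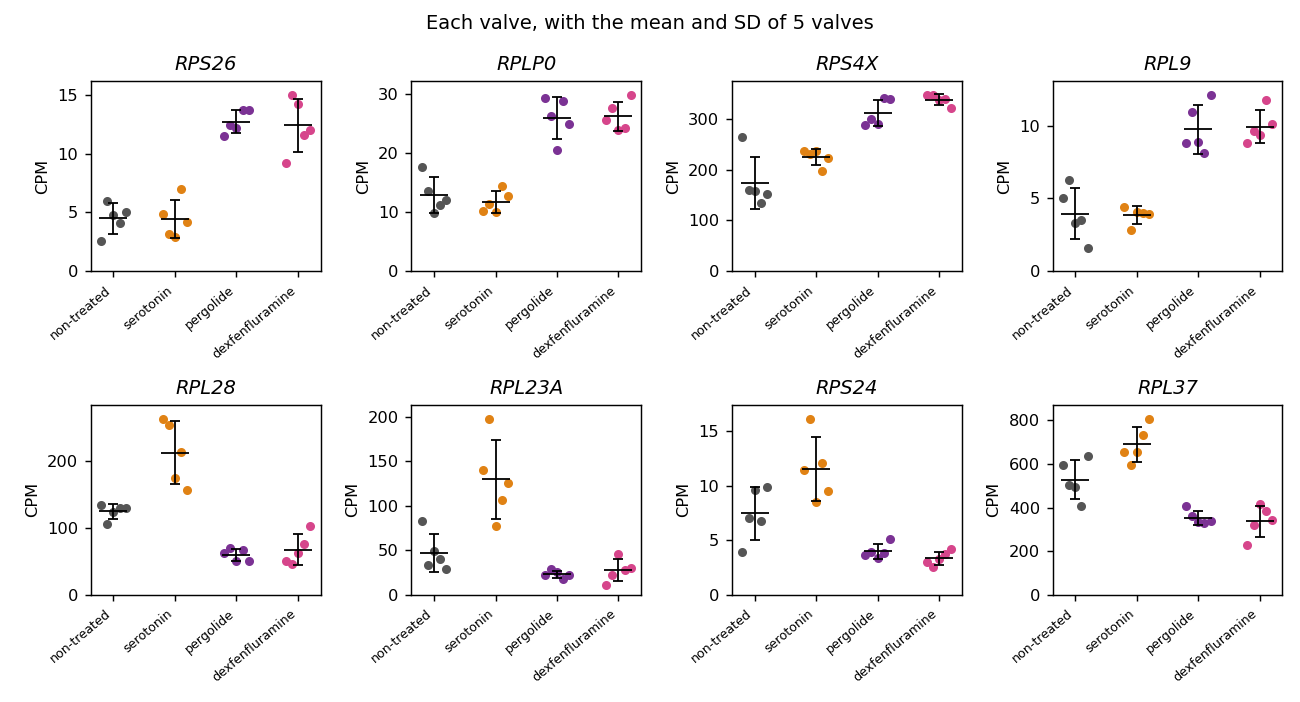
CPM in each valve (points), with the mean and SD of 5 valves (bars), for 8 genes in the 4 groups; the axes start at 0. RPS26, RPLP0, RPS4X and RPL9 lie higher in every drug-treated valve, and RPL28 lower; with total counts instead of TMM, RPL37 turned to higher values for dexfenfluramine.

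RPL28 was lower without overlap under both drugs. RPL28 (ENSOCUG00000027112) measured 134, 106, 124, 129 and 130.5 CPM in non-treated valves 1 to 5, 263, 254, 175, 213 and 157 after serotonin, 62.1, 69.9, 51.0, 66.3 and 50.7 after pergolide and 50.6, 45.3, 62.3, 76.4 and 103 after dexfenfluramine. RPL28 is a protein of the large subunit that bacterial ribosomes lack. Its drug-treated valves were all below, and its serotonin valves all above, the non-treated valves. For RPL28, the log2 fold change was -1.05 ± 0.18 for pergolide and -0.88 ± 0.18 for dexfenfluramine, and 0.77 ± 0.18 for serotonin.

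RPL37 (ENSOCUG00000029674) measured 593, 505, 496, 409 and 634 CPM in non-treated valves 1 to 5, 654, 596, 654, 734 and 806 after serotonin, 405, 363, 333, 327 and 339.8 after pergolide and 229, 319, 416, 382 and 341 after dexfenfluramine. RPL37 is a small zinc-binding protein of the large subunit. For RPL37, the log2 fold change was -0.58 ± 0.14 for pergolide and -0.64 ± 0.14 for dexfenfluramine, and the dexfenfluramine valves overlapped the non-treated valves by dexfenfluramine valve 3 alone. With total counts, the value of RPL37 for dexfenfluramine was 0.06. RPS24 (ENSOCUG00000025551) measured 3.97, 7.04, 9.66, 6.77 and 9.89 CPM in non-treated valves 1 to 5, 11.4, 16.1, 8.47, 12.1 and 9.55 after serotonin, 3.64, 3.93, 3.37, 3.87 and 5.16 after pergolide and 3.01, 2.58, 3.24, 3.73 and 4.17 after dexfenfluramine. RPS24 belongs to the body of the small subunit, and had the fewest reads of that subunit. For RPS24, the log2 fold change was -0.93 ± 0.23 for pergolide and -1.18 ± 0.23 for dexfenfluramine, with overlap through non-treated valve 1. All drug-treated valves of RPS24 were below all serotonin valves.

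RPL23A (ENSOCUG00000025132) measured 83.0, 33.6, 49.0, 40.3 and 29.2 CPM in non-treated valves 1 to 5, 140.0, 198, 77.7, 107 and 126 after serotonin, 21.8, 28.7, 25.1, 17.2 and 22.1 after pergolide and 11.4, 21.7, 45.9, 28.3 and 30.6 after dexfenfluramine. RPL23A lies at the rim of the exit tunnel, where targeting factors dock on the ribosome. Serotonin valves ran higher and pergolide valves lower than the non-treated valves, although non-treated valve 1 reached into the serotonin range. The log2 fold change of RPL23A was 1.47 ± 0.30 for serotonin, -1.02 ± 0.31 for pergolide and -0.75 ± 0.31 for dexfenfluramine, of which the last was not called. Without both libraries that stood apart, RPL23A was called for dexfenfluramine. The pergolide call was lost without non-treated valve 1 (-0.74) or pergolide valve 4 (-0.93). RPL23A had the largest spread within groups after RPL23, 0.54 (SD, log2).

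Serotonin was the treatment with the fewest calls. The genes called were RPL8, RPL23A and RPL28, of which RPL8 is named after its values were seen. RPL8 (ENSOCUG00000003706) measured 265, 255, 245, 200.03 and 259 CPM in non-treated valves 1 to 5, 337, 307, 324, 334 and 348 after serotonin, 295, 326, 267, 345 and 359 after pergolide and 304, 333, 382, 365 and 310.5 after dexfenfluramine. RPL8 is a core protein of the large subunit close to the catalytic centre. Its serotonin valves and its drug-treated valves were all above its non-treated valves, by 0.43 ± 0.10 for serotonin, 0.38 ± 0.09 for pergolide and 0.47 ± 0.09 for dexfenfluramine. RPL8 was thus called higher for all 3 treatments, RPL28 was called higher for serotonin and lower for both drugs, and RPL23A was called higher for serotonin and lower for pergolide. These 3 calls were not stable. The call of RPL23A was lost without non-treated valve 2 (1.37), 4 (1.42) or 5 (1.34) or serotonin valve 1 (1.44) or 2 (1.27). That of RPL28 was lost without non-treated valve 2 (0.71), 4 (0.78) or 5 (0.78) or serotonin valve 1 (0.68), 2 (0.69) or 4 (0.76). That of RPL8 was lost without non-treated valve 2, 4 or 5 or serotonin valve 1, 2, 4 or 5, with values within 0.36 to 0.46 over all 10 fits. The number called was 6 without non-treated valve 1, where 1.72% of all genes were called. It was 7 with DESeq2, 6 higher and 1 lower, where 2.69% of all genes were called. With RLE size factors in edgeR it was 1, where 0.61% were. It was 0 with only the serotonin and non-treated valves in the fit, where 0% were. The count was also 0 with the replicate number as a block (0.0115% of all genes) and with total counts (0.023%).

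Of the 45 genes, 32 had a log2 fold change above 0 for serotonin and 13 below 0. Among the 23 genes higher for both drugs, serotonin values ran from -0.44 to 0.45 with a median of 0.15, and among the 8 genes lower for both drugs they ran from -0.05 to 0.77 with a median of 0.32. Of those 8 genes, 7 were above 0 for serotonin. Compared directly, 32 of the 45 genes were called between pergolide and serotonin, 18 higher and 14 lower with pergolide (17 and 5 with total counts in place of TMM, where 18.3% of all genes were called), where 27.5% of all genes were called, 12.4% higher and 15.1% lower. Between dexfenfluramine and serotonin 33 were called, 19 higher and 14 lower with dexfenfluramine (30 and 3 with total counts, where 44.4% of all genes were called and RPL4, RPL38, RPS6, RPS10, RPS15 and RPS29 turned from lower to higher values), where 30.3% of all genes were called, 13.9% higher and 16.4% lower. Valves did not overlap for 30 genes with pergolide, 17 higher and 13 lower, where 20.3% of all genes did not, 8.38% higher and 11.9% lower. With dexfenfluramine they did not for 22, 13 higher and 9 lower, where 20.9% of all genes did not, 8.75% higher and 12.2% lower. The serotonin, pergolide and dexfenfluramine valves belong to the comparisons that chose the genes, so these counts too are descriptions. Among the widest differences from serotonin were those of RPL23A, with -2.49 ± 0.31 for pergolide and -2.22 ± 0.31 for dexfenfluramine, and RPL28, with -1.82 ± 0.19 and -1.65 ± 0.19.

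Dexfenfluramine and pergolide were compared with each other at different doses, 20 (as labelled) and 0.5 mg/kg per day, both over 16 weeks. This comparison uses the treated valves of the comparisons that chose the genes. None of the 45 genes was called with edgeR, which called 0% of all tested genes. At an unadjusted p under 0.05, 2 of the 45 genes (4.44%) differed, where 7.06% of all genes did. DESeq2 and limma-voom called 0 of the 45 genes as well, where they called 0.0461% and 0% of all genes, with 2 and 3 at an unadjusted p under 0.05. The lowest adjusted p among the 45 genes was 0.643 (edgeR). The intervals of the differences were narrow for most genes. The 95% interval lay within 2-fold in either direction for 43 of the 45 genes and within 1.5-fold for 39. The exceptions at 2-fold were RPL23 (-1.85 to 0.27) and RPL13A (-0.18 to 1.13), which had the fewest reads. The median absolute difference was 0.06 on the log2 scale, beside 0.13 over all tested genes. An adjusted p above the threshold does not show that the drugs act alike.

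Both genes under 0.05 before adjustment were of the large subunit and are named after their values were seen. RPL38 (ENSOCUG00000021292) measured 39.0, 71.5, 55.7, 62.7 and 56.4 CPM in non-treated valves 1 to 5, 57.8, 62.7, 65.2, 73.2 and 49.2 after serotonin, 37.9, 27.7, 36.2, 23.4 and 25.1 after pergolide and 40.9, 32.7, 57.6, 38.2 and 47.3 after dexfenfluramine. RPL38 is known in mice for a part in the translation of Hox messenger RNAs. It was higher with dexfenfluramine than with pergolide by 0.53 ± 0.17 (95% interval 0.17 to 0.89), with overlap of the groups. RPL15 (ENSOCUG00000010961) measured 50.5, 70.5, 66.5, 47.9 and 70.2 CPM in non-treated valves 1 to 5, 65.9, 73.7, 66.0, 67.0 and 58.1 after serotonin, 71.4, 71.6, 47.8, 59.4 and 61.7 after pergolide and 69.9, 79.1, 86.2, 70.8 and 71.8 after dexfenfluramine. RPL15, a core protein of the large subunit, differed by 0.28 ± 0.12 (95% interval 0.03 to 0.52). Pergolide and dexfenfluramine valves overlapped for all 45 genes, where 1.43% of all genes had no overlap.

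**Figure D4:**
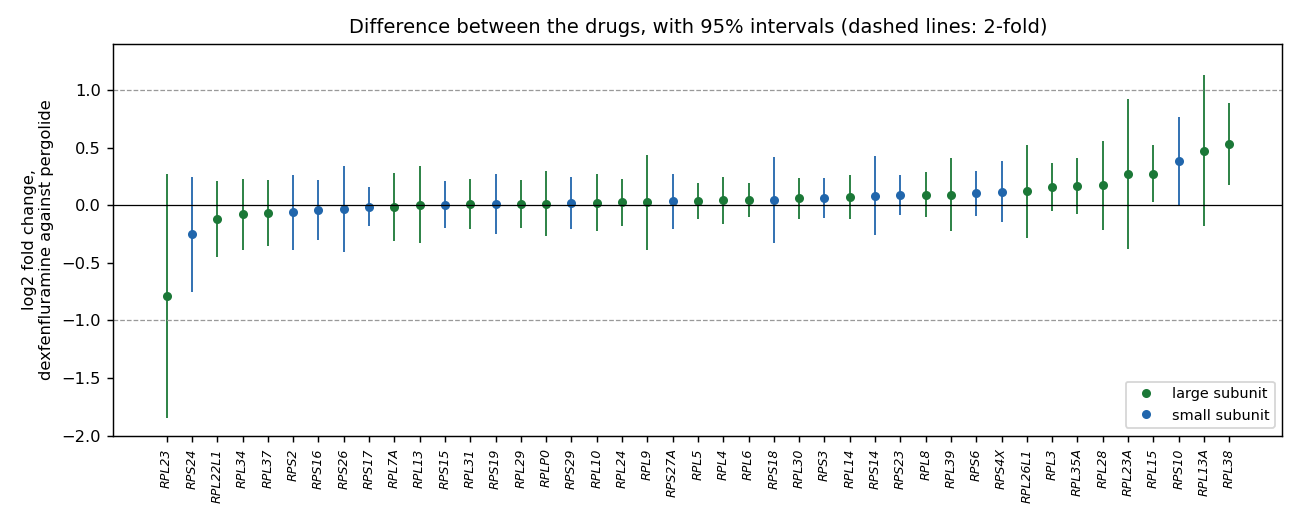
Log2 fold change of each gene shown between dexfenfluramine and pergolide valves (points, coloured by subunit, with 95% intervals as lines), in order of the difference; dashed lines mark 2-fold. Only the intervals of RPL23 and RPL13A reach beyond the dashed lines.

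Summed CPM of all 45 genes was 6169 ± 372 CPM without treatment, 6944 ± 336 with serotonin, 6089 ± 248 with pergolide and 6324 ± 560.5 with dexfenfluramine (SD, n = 5). In valves 1 to 5, the sum was 6645, 6297, 6264, 5653 and 5985 CPM without treatment, 6949, 6402, 6998, 7050 and 7322 with serotonin, 6291, 6237, 5671, 6064 and 6183 with pergolide and 5550, 6128, 7059, 6602 and 6283 with dexfenfluramine. Non-treated, pergolide and dexfenfluramine valves overlapped one another in this sum, and every serotonin valve was above every pergolide valve. The order of the groups also depended on the scaling, since with total counts and no TMM the means were 5074, 6240, 6786 and 8344 CPM in the same order of groups. Large subunit genes summed to 3921 ± 268 CPM without treatment, 4488 ± 222 with serotonin, 3742 ± 122 with pergolide and 3902 ± 362 with dexfenfluramine (SD, n = 5). Small subunit genes summed to 2248 ± 109.7 CPM without treatment, 2456 ± 142 with serotonin, 2347 ± 132 with pergolide and 2422 ± 199.8 with dexfenfluramine (SD, n = 5). Each sum follows its genes with most reads.

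Small subunit genes held 36.5% ± 0.684 of the summed CPM of the family without treatment, 35.4% ± 0.981 with serotonin, 38.5% ± 0.731 with pergolide and 38.3% ± 0.406 with dexfenfluramine (SD, n = 5 each). This share does not depend on the scaling of a library. It lay between 37.3% and 39.2% in drug-treated valves and between 34.6% and 37.1% in the other valves, so that the drug-treated valves did not overlap the others. It rests on the same chosen genes and is a description.

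Split by their calls, the genes moved apart. The 23 genes called higher for both drugs summed to 1665 ± 141 CPM without treatment, 1868 ± 34.8 with serotonin, 2386 ± 147 with pergolide and 2470 ± 173 with dexfenfluramine (SD, n = 5). The 8 genes called lower for both drugs summed to 1663 ± 108 CPM without treatment, 2091 ± 154 with serotonin, 1072 ± 71.2 with pergolide and 1085 ± 143 with dexfenfluramine (SD, n = 5). These 8 genes thus held about as many reads as the 23 in non-treated valves and fewer in drug-treated valves, by the choice that defines them. With serotonin, the 8 genes ran from 1900 to 2262 CPM, above the 1505 to 1777 CPM of non-treated valves.

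**Figure D5:**
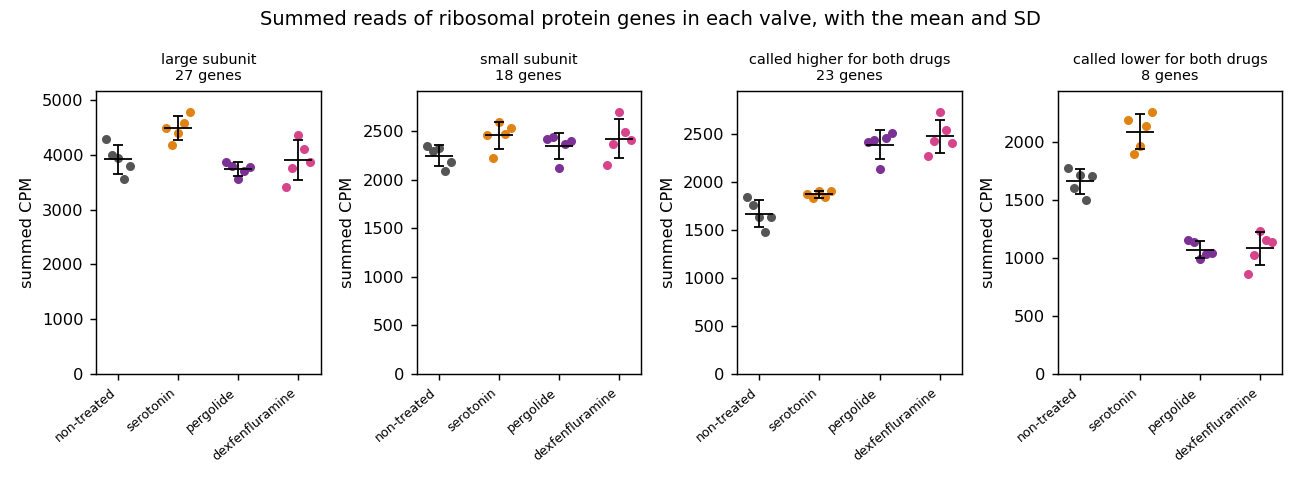
Summed CPM in each valve (points) of the large subunit genes, the small subunit genes, the 23 genes called higher and the 8 called lower for both drugs, with the mean and SD of 5 valves (bars); axes start at 0. Subunit sums overlap between the non-treated, pergolide and dexfenfluramine groups, while both called sets divide as they were chosen to; with total counts instead of TMM, RPL14, RPL26L1, RPL37, RPS10 and RPS23 of the lower set turned to higher values for dexfenfluramine.

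By read level, genes with most reads were as often called lower as higher for pergolide, although with total counts in place of TMM 0 genes were called lower. Among the 15 genes with most reads (116 to 1019 CPM), 5 were called higher and 5 lower for pergolide, and 5 higher and 4 lower for dexfenfluramine, with median log2 fold changes of -0.19 and -0.16. Among the 15 in the middle (49.8 to 109 CPM), 10 were called higher and 2 lower for pergolide, and 10 higher and 1 lower for dexfenfluramine, with medians of 0.45 and 0.52. Among the 15 with fewest reads (1.60 to 48.0 CPM), 10 were called higher and 4 lower for pergolide and 10 higher and 3 lower for dexfenfluramine, with medians of 0.69 and 0.97. Of all tested genes, 12.1% were called higher and 12.7% lower for pergolide, and 13.5% and 15.4% for dexfenfluramine. These counts describe the chosen genes, and no test was made over them.

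By place in the ribosome, the 9 genes of the small subunit head held 4 called higher and 1 called lower for both drugs, and the 9 genes of its body and platform held 5 and 3, where 8.99% of all genes were called higher for both drugs and 10.6% lower. Of 4 genes at the exit tunnel and its rim (RPL4, RPL23A, RPL31 and RPL39), 2 were called higher for both drugs and 0 lower. RPL39 and RPL31 were the higher ones, with 0.99 ± 0.16 and 0.55 ± 0.11 for pergolide. RPL3 and RPL10, grouped here under the peptidyl transferase centre, were both outside the genes called for both drugs, and so was RPL5. RPL8, which also lies close to the catalytic centre but was not put in that group, was called higher for both drugs. Genes lower for both drugs were thus found in the head and the body of the small subunit and in the large subunit.

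Introns of ribosomal protein genes often carry small nucleolar RNAs (snoRNAs), which guide the modification of ribosomal RNA. All 45 genes matched a gene of the RefSeq annotation of mOryCun1.1 by symbol, and 16 of them held 33 annotated snoRNA genes. Of these 16, 7 were called higher for both drugs and 2 lower, and of the 29 others 16 were higher and 6 lower, where 8.99% and 10.6% of all genes were. Their median log2 fold changes were 0.32 and 0.38 for pergolide and 0.35 and 0.42 for dexfenfluramine. Genes with and without snoRNAs thus had similar medians.

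Within groups, the median SD of the 45 genes was 0.21 on the log2 scale, beside 0.28 over all tested genes. Non-treated valve 1 was the highest of its group for 11 of the 23 genes higher for both drugs, and valve 4 the lowest for 10. Dexfenfluramine valve 3, which stood apart, was the highest of its group for 15 of the 23, and dexfenfluramine valve 1 the lowest for 13. Pergolide valve 3 was the lowest of its group for 13 of the 23. The same valve was thus at an end of its group for many of these genes. This count was not made over all tested genes, so it cannot be read as particular to these genes.

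A wider list of 79 cytosolic ribosomal proteins, of which 52 had a symbol, repeats most of these genes and holds the 7 left out by name, so its counts of calls are not given. It includes FAU and RPSA, which the naming rule of the family does not reach and which are also in the study's list of DEGs. FAU, a ribosomal protein made as a fusion with a ubiquitin-like protein, had log2 fold changes of 1.59 ± 0.20 for pergolide and 1.54 ± 0.20 for dexfenfluramine. RPSA, a small subunit protein also known as a laminin receptor, had 1.497 ± 0.14 and 1.72 ± 0.14. For serotonin the values were 0.25 ± 0.21 and -0.18 ± 0.16, and neither was called.

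Other genes whose messenger RNAs carry a TOP motif were represented by 10 of 17 listed genes. These 10 had their symbols from the study's list of DEGs, so their calls too describe genes already chosen for such differences. For pergolide, 4 were called higher and 4 lower, for dexfenfluramine 5 and 4, and for serotonin 2 and 0, where 24.8%, 28.9% and 1.19% of all genes were called. The median log2 fold changes were 0.07, 0.28 and -0.03. EEF1A1, the factor that delivers aminoacyl-tRNA, was higher, by 0.51 ± 0.11 for pergolide and 0.59 ± 0.11 for dexfenfluramine. TPT1, the translationally controlled tumour protein, was lower, at -0.76 ± 0.11 and -0.67 ± 0.11. NAP1L1, a histone chaperone, was called higher for serotonin at 0.43 ± 0.10 and lower for pergolide at -0.63 ± 0.10 and dexfenfluramine at -0.64 ± 0.10. EEF1B2, an exchange factor of elongation, had the same 3 directions, with 0.79 ± 0.14, -0.75 ± 0.14 and -0.68 ± 0.14. The serotonin calls of NAP1L1 and EEF1B2 were not stable. Both were lost with only the serotonin and non-treated valves in the fit, where 0% of all genes were called. Both were also lost without non-treated valve 2 or 5 or serotonin valve 1, where again 0% were. Directions of these and the next genes with total counts in place of TMM were not computed.

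Regulators of ribosomal protein transcription and of TOR signalling were represented by 7 of 21 listed genes. These 7 also came through the study's list of DEGs, so their calls are descriptions of chosen genes. For pergolide 0 were called higher and 4 lower, for dexfenfluramine 1 higher and 3 lower, and for serotonin 0, where 24.8%, 28.9% and 1.19% of all genes were called. LARP1, which binds TOP messenger RNAs, was lower, at -0.56 ± 0.10 for pergolide and -0.52 ± 0.10 for dexfenfluramine. PRKAA1, a catalytic subunit of AMP-activated kinase, was lower, at -0.51 ± 0.08 and -0.41 ± 0.08. MAX, the partner of MYC, was lower, at -0.69 ± 0.12 and -0.68 ± 0.12. DDIT4, an inhibitor of mTOR, was higher for dexfenfluramine, at 1.29 ± 0.28, and 0.16 ± 0.28 for pergolide.

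Cell type markers had a symbol only through the study's list of DEGs, so those described were already chosen for differences between these groups. Their levels and calls are descriptions, and markers outside that list were not examined. Of all tested genes, 12.1% were called higher and 12.7% lower for pergolide, and 13.5% and 15.4% for dexfenfluramine. The interstitial cell markers summed to 6205 ± 992 CPM in non-treated, 6849 ± 706 in serotonin, 8287 ± 1407 in pergolide and 8893 ± 1183 in dexfenfluramine valves (SD, n = 5 each), with 5 of 7 called higher for pergolide and 4 for dexfenfluramine. The cardiomyocyte markers had 1 of 7 called lower for pergolide and 3 for dexfenfluramine. Endothelial markers, of which PECAM1 and EMCN had a symbol and PECAM1 the most reads, summed to 266.2 ± 77.8 CPM in non-treated, 296.4 ± 32.9 in serotonin, 165 ± 39.7 in pergolide and 214.4 ± 35.2 in dexfenfluramine valves (SD, n = 5 each). Both were called lower for pergolide. The 3 adipocyte markers with a symbol, led by ADIPOQ, summed to 35.82 ± 19.7 CPM in non-treated, 73.25 ± 38.3 in serotonin, 122.7 ± 50.5 in pergolide and 57.42 ± 40.9 in dexfenfluramine valves (SD, n = 5 each), and all 3 were called higher for pergolide. In dexfenfluramine valve 3 they summed to 3.24 CPM. Macrophage markers C1QA and C1QB, with C1QA leading, summed to 16.21 ± 7.30 CPM in non-treated, 21.34 ± 9.84 in serotonin, 32.9 ± 12.5 in pergolide and 28.73 ± 4.22 in dexfenfluramine valves (SD, n = 5 each), and C1QA was called higher for pergolide. Smooth muscle markers MYH11 and TAGLN, with MYH11 leading, summed to 48.55 ± 20.1 CPM in non-treated, 47.84 ± 19.4 in serotonin, 35.29 ± 8.64 in pergolide and 22.58 ± 6.40 in dexfenfluramine valves (SD, n = 5 each); TAGLN was called higher for both drugs and MYH11 lower for dexfenfluramine. No erythroid marker had a symbol matched through that list, so erythroid genes were not examined. The part of the cell types in the values of the ribosomal protein genes was not tested.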

How the data were processed

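Tricuspid valves of 20 rabbits were analysed. The authors depleted ribosomal RNA, made stranded libraries, aligned reads with TopHat2 2.1.1 to the rabbit genome and counted them per Ensembl gene with HTSeq. The deposited values are raw counts. Which annotation release and strand setting were used, and what was done with multi-mapped reads, was not found in the sources used here. Ribosomal protein genes have many processed pseudogenes, so reads of close copies can be split or lost, and single values are uncertain in that respect.

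Members and lists were chosen with earlier results of these data known. Symbols come from the study's list of DEGs, whose ids were read as printed for 37 genes and with an extra leading 0 removed for 8. Values per valve are given for genes with the most and fewest reads of each subunit, the largest rises and falls with the drugs, opposite calls, the largest and smallest spread, and 5 genes by name. Values of some single genes are not reported here, and counts and sums include all 45.

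Counts were scaled by TMM and tested with edgeR 4.0.16 (R 4.3.3) in a single fit of the 4 groups after filterByExpr, without covariates. Intervals are 95%. Log2 CPM used a prior count of 2. Alternatives were DESeq2 1.42.0, limma-voom (limma 3.58.1), svaseq (sva 3.50.0, 4 surrogate variables), RLE size factors, other filters and groupings, single valves left out and, chosen after seeing the data, both libraries that stood apart left out and total counts without TMM for the calls. The test was tried on simulated counts. Python 3.11.15 with pandas 2.3.3 and matplotlib 3.10.9 drew the figures. Counting error limits genes with few reads, and the spread between 5 valves limits the others.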

Additional observations from a re-analysis of the deposited data

Results flagged for a closer look

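In 96 groups of 5 valves examined, 5 held a valve far from the other 4, where chance gives about 1 in 20. RPL13A measured 2.16 CPM in non-treated valve 1 and 0.813 to 1.18 CPM in the others. RPS4X measured 264.8 CPM in the same valve and 134 to 159 CPM in the others. RPL5 measured 353 CPM in serotonin valve 4, where the other serotonin valves had 310.2 to 321 CPM. The summed level of the small subunit genes was 2116 CPM in pergolide valve 3 and 2362 to 2442 CPM in the other pergolide valves. Pergolide valve 2 had a total count of 5921000, and the other pergolide valves had 4484000 to 4849000.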

How the results depend on the processing

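The serotonin count of 3 was the count that moved most, relative to its size. It was 7 with DESeq2 (2.69% of all genes called), 1 with RLE size factors (0.61%), 1 with library sizes without the gene with most reads (0.426%), 1 without a filter (0.349%), 1 with at least 10 counts in every valve (0.863%), 0 with only the 2 groups compared (0%), 5 without both libraries that stood apart (5.53%) and 0 with total counts (0.023%), and single valves left out gave 0 to 6 (0% to 2.93%). The cause was not tested. With limma-voom and svaseq, 29 were called for pergolide (23 higher, 6 lower), 25 for dexfenfluramine (21 higher, 4 lower), 4 for serotonin, 27 for pergolide against serotonin (18 higher, 9 lower) and 25 for dexfenfluramine against serotonin (17 higher, 8 lower), where 13.3%, 11.4%, 1.23%, 17.3% and 15.9% of all genes were. With total counts, 22 were called for pergolide against serotonin (18.3%), and with only the 2 groups compared 28 for dexfenfluramine (23.9%). Leaving out single valves gave 29 to 35 for pergolide (20.2% to 26% of all genes), 29 to 32 for dexfenfluramine (23.1% to 32%), 31 to 33 for pergolide against serotonin (23.7% to 25.2%), 29 to 33 for dexfenfluramine against serotonin (25.2% to 28.8%) and 0 between the drugs (0%).

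Valves with the same number in different groups had correlations from -0.34 to 0.49, with at most 1 of 5 valves closest to its own number, so the numbers were not taken as pairs. With the replicate number as a block, the count was 0 for serotonin (0.0115% of all genes), 30 for pergolide (22.9%), 31 for dexfenfluramine (27.2%), 0 between the drugs (0%), 32 for pergolide against serotonin (25.7%) and 33 for dexfenfluramine against serotonin (28.6%).

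Summed CPM of the 45 genes shifted with the divisor. In non-treated, serotonin, pergolide and dexfenfluramine valves it was 5074, 6240, 6786 and 8344 with total counts and 9618, 10590, 9343 and 9737 without the gene with most reads. For the 37 genes with ids exactly as printed, fewer genes under the same scaling, the sums were 5020, 5713, 5218 and 5436, with pergolide above non-treated valves, the reverse of the 45 genes.

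Of the called log2 fold changes followed over these settings, 2 turned, both with total counts: RPL26L1 (0.05716) and RPL37 (0.05757) for dexfenfluramine. Uncalled values also changed sign in some settings, among them with total counts RPL4 (0.20 for pergolide, 0.50 for dexfenfluramine) and RPL5 (0.24 and 0.51, the latter called). Among the values followed, apart from the 2 that turned, 1079 kept their call or stayed uncalled within 1 standard error. Of the rest, 62 lost a call, 18 gained one and 18 uncalled values moved by more than their standard error.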
